A study of Saccharomyces cerevisiae with 2 samples.

Results

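The genes described here belong to the COS, PAU, AAD, YRF1 and FLO families, which lie mostly close to the chromosome ends of budding yeast. They were chosen by their names in both scanner files, with earlier results of these data known. The rule took every gene spot named COS, PAU or AAD with a number, YRF1 with a number, or FLO1, FLO5, FLO9, FLO10 or FLO11. The rule found 35 of the 6256 genes on the array, in 60 spots, namely 11 COS, 7 PAU, 6 AAD, 7 YRF1 and 4 FLO genes. No spot carried the name FLO11, and 19 further genes that the RefSeq table of assembly R64 places in these families are on the array under systematic or older names. They are given separately as relatives, and this list was made after values had been seen.

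RNA from wild-type cells and from YDR374C-deleted cells, both in the haploid strain background BY4741, was compared on 2 two-channel arrays. Both strains were grown in SD medium and harvested at mid-exponential phase, at an OD600 of 0.7. The labels give Cy3, the green channel, to wild type and Cy5, the red channel, to the deletion strain on each array. YDR374C encodes PHO92, a YTH-domain protein that binds methylated mRNA, and the labels do not say whether the deletion strain is 1 clone or whether the arrays hold separate cultures. P-values therefore cover no more than the spread of 2 arrays, and that spread may be technical. The dyes were never swapped, so a fixed dye effect of a probe and a strain difference cannot be told apart. In RNA from whole cultures, fewer cells of a type and less RNA per cell cannot be told apart either.

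Genes near yeast telomeres are often held at low activity by the Sir proteins, and many occur as families copied from one chromosome end to the next. COS genes encode membrane proteins that help to sort cell-surface proteins to the vacuole for breakdown. YRF1 genes lie inside the Y' elements, repeats next to the telomeres, and encode helicase-like proteins. PAU genes encode small serine-poor mannoproteins that are known for rising without oxygen, AAD genes encode putative aryl-alcohol dehydrogenases, some of them interrupted, and FLO genes encode the cell-wall adhesins behind clumping and filamentous growth. The reference laboratory strain carries a defective FLO8, and its FLO genes are known to be little expressed. The copies within a family, above all in YRF1 and PAU, are close to identical, so a probe may also detect RNA of its relatives. Probe sequences were not used here, so how far each probe separates the copies was not examined.

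The median gene spot read between 1597 and 3105 across channels and arrays, against 126 to 183 for the negative controls. Across 5641 tested genes the median log2 ratio, deletion over wild type, was -0.00193, and 36.4% of genes passed limma's test as higher and 36.7% as lower at an adjusted p of 0.05. At a size limit of 0.5 in either direction, 4.13% were higher and 3.88% lower. Log2 ratios are those of limma, from its own background correction and loess. They need not equal ratios of the scanner's processed signals printed beside them. Each SE is limma's moderated SE, which borrows spread from all genes, and is not the SE of the 2 array values alone. The deleted gene was no clear check of the labels, since the signal of PHO92 went from 157 in wild type to 123 in the other channel on array 1 and from 128 to 126 on array 2, with a log2 ratio of -0.23 ± 0.03 (SE, n = 2) at a mean log2 intensity of 7.96. URA3, which BY4741 lacks, was called higher by 0.33 at a mean log2 intensity of 8.52. Of 8 tested genes tied to the strain or to mating type, 2 were higher, URA3 and STE2 (0.13 ± 0.04). The 3 lower ones were BAR1 (-0.43 ± 0.04), MFA2 (-0.32 ± 0.04) and STE3 (-0.31 ± 0.03). MFA1 (-0.04), HIS3 (-0.03) and SAG1 (-0.02) did not pass, so the mating-type genes went both ways. LEU2 and MET17, also lacking in BY4741, were not well above background. The directions given here depend on those dye labels.

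Of the 35 family members, 34 were tested, and each had at least 1 spot well above background in either channel of each array. The exception among used spots was 1 COS12 spot on array 2, whose red signal was not. In the RNA labelled as deletion 18 of the 34 (52.9%) were higher, 9 (26.5%) were lower and 7 did not pass the test. Among all tested genes 36.4% were higher and 36.7% lower. The limit of 0.5 was reached by 8 higher members, 4 COS and 4 YRF1 genes, and by 1 lower member, COS12. Of all tested genes 4.13% reached it as higher and 3.88% as lower. The split between COS and YRF1 depended on the processing. Median centring in place of loess put 7 COS and 1 YRF1 gene past the limit as higher. The scanner software's ratios put 3 and 7 there, and normexp without an offset, with loess kept, put 4 and 6. Both arrays gave 1 sign for 31 of the 34 tested members, and for 5056 of all 5641 tested genes. The direction varied by family. All 7 YRF1 genes and 9 of 10 tested COS genes were higher, 4 of 6 AAD genes were lower and none higher, and the PAU and FLO genes went both ways. The plot of log2 ratios by member shows the values on each array.

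**Figure D1:**
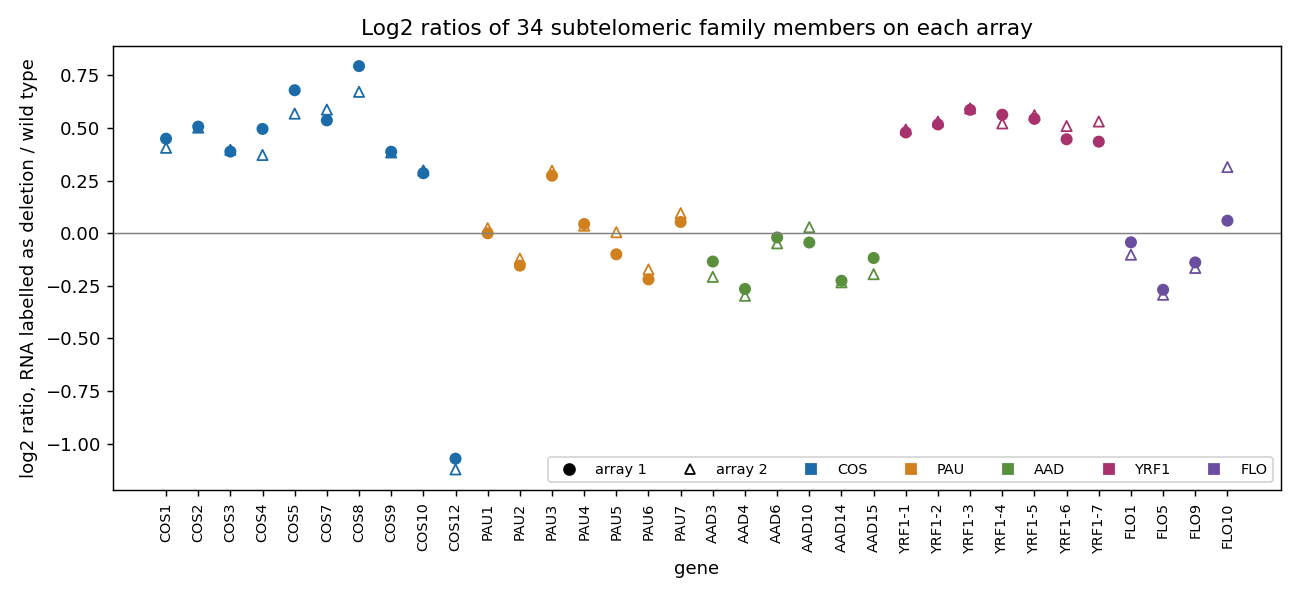
Log2 ratio of the RNA labelled as deletion over wild type (vertical axis) for the 34 tested members, coloured by family, with filled circles for array 1 and open triangles for array 2. COS genes other than COS12 and all YRF1 genes lie above 0 on both arrays, COS12 lies at -1.07 and -1.12, and the PAU, AAD and FLO genes lie between -0.30 and 0.31.

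After loess, COS8 had the largest rise among the members, whereas after median centring COS2 (0.75) and COS5 (0.73) stood above COS8 (0.69). Its processed signal was 762 in wild type and 1374 in the RNA labelled as deletion on array 1, and 939.9 and 1523 on array 2. The red signal exceeded the green one on both arrays. After limma's background correction and loess, the log2 ratios of COS8 were 0.79 and 0.67. Their mean was 0.73 ± 0.04 (SE, n = 2), or 1.66-fold (limma adjusted p = 7.49e-10). COS5 followed, with 2523 in green and 4043 in red on array 1 and with 3138 in green and 4670.1 in red on array 2. After loess its log2 ratios were 0.68 and 0.57. Its mean log2 ratio was 0.62 ± 0.04 (1.54-fold, limma adjusted p = 2.47e-09). Array 2 gave 1 usable spot for COS5 and array 1 gave 2.

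COS7 has a dim probe and COS2 a bright one, with mean log2 intensities of 9.23 and 14.5, and after loess both rose by similar amounts. COS7 read 163 in wild type and 267 in the RNA labelled as deletion on array 1, and 352 and 573 on array 2. COS2 rose from 9800.4 to 14034 on array 1 and from 15016 to 20609.6 on array 2. The mean log2 ratios were 0.56 ± 0.04 for COS7 and 0.50 ± 0.03 for COS2 (SE, n = 2), with limma adjusted p = 3.49e-09 and 8.13e-09. After median centring they were 0.50 for COS7 and 0.75 for COS2. Brightness differs between probes for many reasons, so these signals do not rank the RNA levels of the genes. The plot of processed signals shows each COS probe in both channels.

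**Figure D2:**
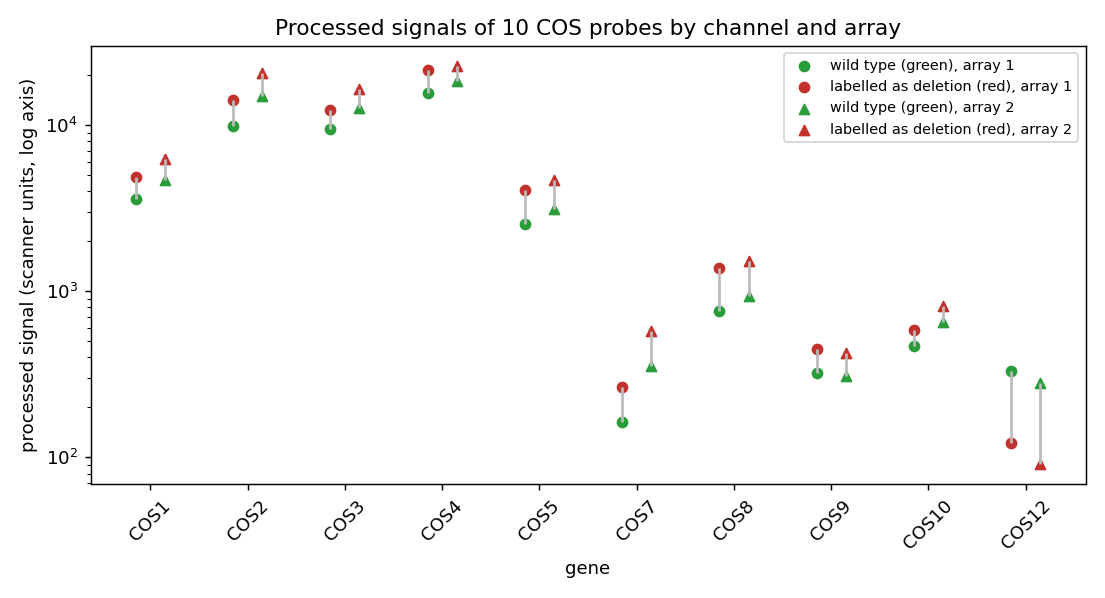
Processed signal (vertical log axis, scanner units) of 10 COS probes in the wild-type channel (green) and in the channel labelled as deletion (red), circles for array 1 and triangles for array 2, joined by a grey line. Red lies above green for 9 probes on both arrays and below green for COS12, where the red signal was 123 and 90.9.

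The remaining higher COS genes rose by less. COS4 was higher by 0.43 ± 0.04, COS1 by 0.43 ± 0.03, COS3 by 0.39 ± 0.03, COS9 by 0.39 ± 0.03 and COS10, the smallest rise, by 0.29 ± 0.03 (SE, n = 2; limma adjusted p = 2.44e-06 for COS10). COS4 is the brightest member, with red mean signals of 54844 and 58150 in its spots on array 2, the second of which was saturated. Without that spot its log2 ratio was 0.46. COS6 was not tested, because the scanner software marked both of its spots as outliers on both arrays. With those spots kept, COS6 had log2 ratios of 0.61 and 0.47 on the arrays, a mean of 0.54 ± 0.04 with limma adjusted p = 4.33e-08.

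COS12 moved the other way from every other tested COS gene. Its processed signal fell from 330 in wild type to 123 in the RNA labelled as deletion on array 1, and from 281 to 90.9 on array 2. The channels did not overlap across the arrays. How many other genes show this was not counted, but 5056 of 5641 tested genes had 1 sign on both arrays, in either direction. After limma's background correction and loess, the mean log2 ratio was -1.10 ± 0.04 (SE, n = 2), or 2.14-fold (limma adjusted p = 1.01e-11). Spot by spot the values were -1.21 and -0.93 on array 1 and -1.12 and -1.13 on array 2, and the red signal of the second spot on array 2 was not well above background. Spots of 1 member differed by a median of 0.09 on array 1 and 0.02 on array 2. The scanner software's own log ratios gave a larger fall for COS12, -1.55, and normexp without an offset gave -1.26. COS12 is dim, with a mean log2 intensity of 8.70, and the part of low signal in its value was not tested.

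The 10 tested COS genes had a median log2 ratio of 0.43, with 0.47 on array 1 and 0.40 on array 2, and ranged from -1.10 to 0.73. Without COS12 the range was 0.29 to 0.73, with an SD over genes of 0.14 against a median difference between arrays of 0.04 per gene. These 2 measures differ in kind, and COS12 was set aside after its value was seen. Differences among the 9 higher COS genes were not tested, and they changed with the dye balance, as COS2 and COS7 show above.

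All 7 YRF1 genes rose, by closely similar amounts. YRF1-3 had the largest rise, reading 530.0 in wild type and 826 in the RNA labelled as deletion on array 1, and 535 and 844 on array 2. After limma's background correction and loess, its log2 ratio was 0.59 on each array (mean 0.59 ± 0.03, 1.51-fold, limma adjusted p = 1.87e-09). YRF1-6 had the smallest rise, from 804 to 1126 on array 1 and from 680.3 to 999.5 on array 2. Its mean log2 ratio was 0.48 ± 0.04 (limma adjusted p = 1.85e-08). Red exceeded green on both arrays for each of the 7 probes. Counting either direction, 5056 of 5641 tested genes had 1 sign on both arrays.

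The others lay between these values. YRF1-5 had 0.54 and 0.56 on the arrays, with a mean of 0.55 ± 0.03. YRF1-4 had 0.56 and 0.52, with a mean of 0.54 ± 0.03. YRF1-2 had 0.52 and 0.53, with a mean of 0.52 ± 0.03. Below them were YRF1-1 at 0.49 ± 0.03 and YRF1-7 at 0.48 ± 0.04 (SE, n = 2). The SD over the 7 genes was 0.04, against a median difference between arrays of 0.02 per gene. The range was 0.11, close to the difference of 0.10 between arrays for YRF1-7, and differences among the YRF1 genes were not tested. As the copies are near-identical, the 7 probes are not 7 independent results, and how much RNA they share was not tested. Their brightness was also alike, with mean log2 intensities from 9.996 to 10.63. YRF1-8, present on the array under its systematic name YOR396W and looked up after values had been seen, had 0.54 ± 0.03.

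The 7 PAU genes showed small differences in both directions, with a median log2 ratio of 0.01. PAU3 was the single higher member. It read 2638 in wild type and 3146 in the RNA labelled as deletion on array 1, and 2163 and 2661 on array 2. The mean log2 ratio of PAU3 was 0.29 ± 0.03 (SE, n = 2, limma adjusted p = 3.15e-06). PAU6 was lower, falling from 5585 to 4763 on array 1 and from 5722 to 5121 on array 2, with -0.20 ± 0.04 (limma adjusted p = 0.000143). PAU2 was lower by a smaller amount, -0.14 ± 0.03, with -0.15 and -0.12 on the arrays. PAU7 (0.07, from 0.05 and 0.10), PAU4 (0.04), PAU1 (0.01) and PAU5 (-0.05) did not pass.

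The calls in the PAU family depended on how the dyes were balanced. Loess removes a trend of the ratio with brightness, and most PAU probes are bright. With median centring in place of loess, PAU6 (-0.04, adjusted p = 0.375) and PAU2 (-0.00, adjusted p = 0.956) lost their calls, while PAU1 (0.15) and PAU4 (0.12) passed as higher. All tested genes with a mean log2 intensity above 12 had a median of 0.00145 after loess and 0.14 after median centring. PAU3 was called higher under both, with 0.33 after median centring.

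A further 17 PAU genes are on the array under systematic names or as DAN2 and DAN3, which gives 24 in all. Among these 24, 7 were higher, 7 lower and 10 did not pass, against 36.4% and 36.7% of all tested genes, and none had an absolute log2 ratio of 0.5 or more. After median centring 13 of the 24 were higher and 2 lower, with a median of 0.13 in place of 0.03. With that setting 36.8% of all tested genes were higher and 37.1% lower. The highest were PAU15 (0.40 ± 0.04), PAU19 (0.38 ± 0.03), PAU21 (0.31 ± 0.04), PAU3 and PAU22 (0.28 ± 0.04), and the lowest were PAU12 (-0.26 ± 0.04), PAU20 (-0.21 ± 0.04) and PAU6 (SE, n = 2). The higher genes were mostly those with dimmer probes. Of 8 PAU genes with a mean log2 intensity up to 12, 5 were higher and none lower, and of 16 above it, 2 were higher and 7 lower. Across the 24 genes, which share the arrays and much of their sequence, Pearson's r between mean log2 intensity and log2 ratio was -0.50 after loess and -0.09 after median centring. PAU15, PAU19, PAU21, PAU22 and PAU3 had the 5 highest values with either method, as the plot of the 24 genes shows.

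**Figure D3:**
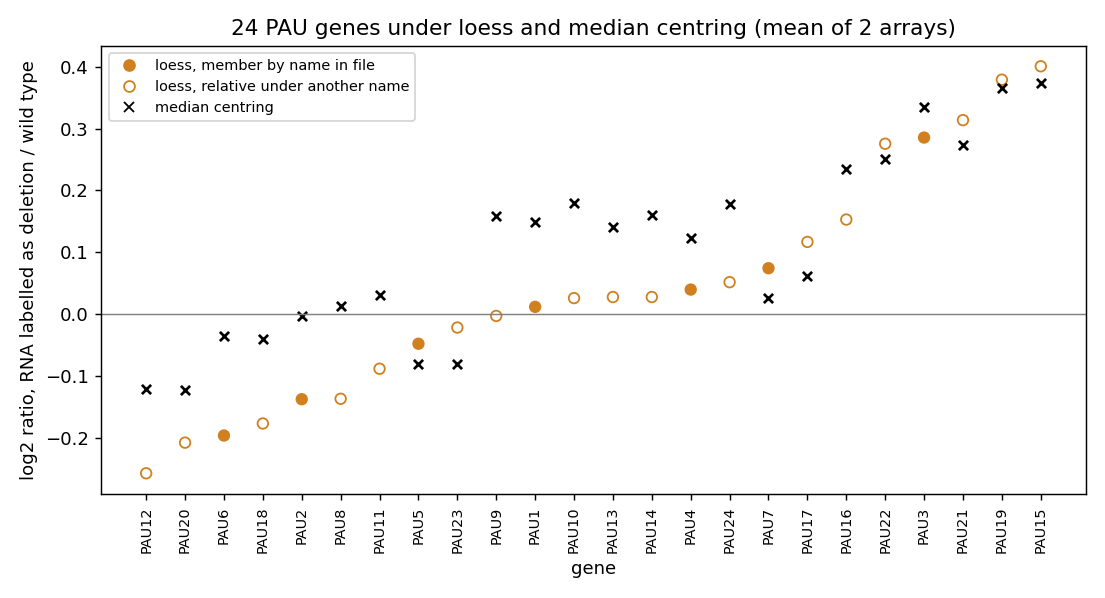
Log2 ratio (vertical axis, mean of 2 arrays) of 24 PAU genes in order of their value after loess normalisation, filled circles for the 7 genes named PAU in the files, open circles for the 17 relatives and crosses for median centring. Crosses lie above circles for most genes with low or middle values, and the same 5 genes, from 0.28 to 0.40 after loess, stand highest in both.

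The AAD genes tended downwards by small amounts. AAD4 fell most: it read 328 in wild type and 264 in the RNA labelled as deletion on array 1, and 306 and 246 on array 2. Its mean log2 ratio was -0.28 ± 0.03 (SE, n = 2, 1.22-fold, limma adjusted p = 3.85e-06). AAD14 fell from 691 to 582 on array 1 and from 559 to 472 on array 2, with -0.23 ± 0.03 (limma adjusted p = 2.75e-05). Green exceeded red on both arrays for AAD4 and AAD14, as it did for 2 further lower genes. Most tested genes had 1 sign on both arrays, counting either direction. AAD3 had -0.13 and -0.21 on the arrays (mean -0.17 ± 0.04), and AAD15 had -0.12 and -0.19 (mean -0.16 ± 0.04). AAD10 (-0.01) and AAD6 (-0.03) did not pass, though AAD6 passed as lower after median centring (-0.09, adjusted p = 0.0287). The median of the 6 genes was -0.16, with -0.13 on array 1 and -0.20 on array 2. No AAD gene came near the limit of 0.5, and the 4 lower of 6 stand beside the 36.7% of all tested genes that were lower.

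Among the FLO genes, FLO5 and its close relative FLO9 were lower and FLO10 was higher. FLO5 read 579.8 in wild type and 476 in the RNA labelled as deletion on array 1, and 564 and 445 on array 2. Its mean log2 ratio was -0.28 ± 0.03 (SE, n = 2, limma adjusted p = 3.77e-06). FLO9 fell from 494 to 448 on array 1 and from 503 to 439.7 on array 2, with -0.15 ± 0.03. FLO1, which is nearly the same in sequence, had -0.04 and -0.10 on the arrays (mean -0.07 ± 0.04) and did not pass (limma adjusted p = 0.0781), but passed after median centring with -0.13. All 3 lay below 0 on both arrays, and differences among them were not tested. Most tested genes had 1 sign on both, counting either direction.

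FLO10 rested mainly on array 2. It read 153 in wild type and 169.6 in the RNA labelled as deletion on array 1, and 89.8 and 121 on array 2, with log2 ratios of 0.06 and 0.31. The mean was 0.19 ± 0.05 (SE, n = 2; limma adjusted p = 0.0028), and at a mean log2 intensity of 8.39 the probe was dimmer than that of URA3. FLO11, the adhesin of filamentous growth, is on the array under its older name MUC1. It had 0.13 ± 0.04 at a mean log2 intensity of 8.53 and passed as higher (limma adjusted p = 0.00495), but not after median centring (0.07, adjusted p = 0.0942). It is as dim as URA3 and differed less.

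Set beside each other, the family medians on array 1 were 0.52 for YRF1, 0.47 for COS, -0.00026 for PAU, -0.09 for FLO and -0.13 for AAD. On array 2 they were 0.53 for YRF1, 0.40 for COS, 0.02 for PAU, -0.13 for FLO and -0.20 for AAD. This order was the same on both arrays after loess, but median centring placed COS (0.61) above YRF1 (0.48), and no difference between families was tested. YRF1 and COS overlap in their members' values, as do PAU, AAD and FLO. No AAD or FLO value reached the smallest YRF1 value, while PAU15, PAU19 and PAU21 among the relatives exceeded COS10. The scanner software gives its own p-value per spot, which is stricter: it was under 0.01 in every used spot on both arrays, with 1 sign, for 5.07% of tested genes and for 5 of 34 members. These were COS5, COS8, YRF1-3 and YRF1-5, higher, and COS12, lower. The plot against probe brightness sets the members among all genes.

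**Figure D4:**
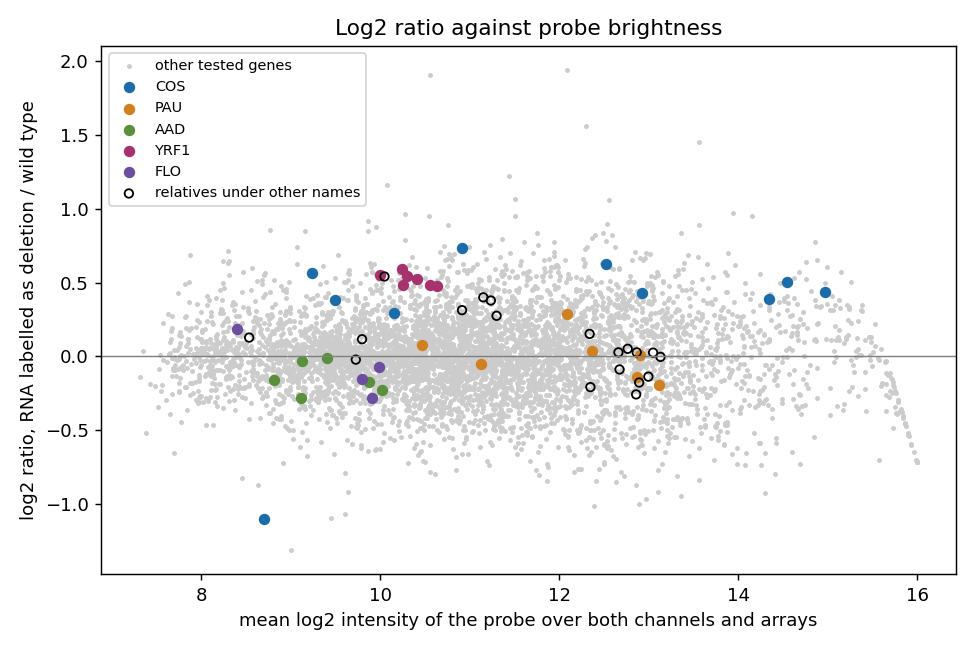
Log2 ratio (vertical axis, mean of 2 arrays) against the mean log2 intensity of the probe over both channels and arrays, with all other tested genes in grey, members coloured by family and 19 relatives as open circles. The YRF1 genes form a tight group at intensities of 9.996 to 10.63 and ratios of 0.48 to 0.59, COS genes spread over the whole brightness range, and COS12 stands apart at 8.70 and -1.10.

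Most members lie at the outer edge of their chromosome. In the gene order of the RefSeq table, 30 of the 35 were within 10 annotated genes of an end, and the 5 others were PAU2, PAU5, PAU7, AAD6 and FLO5. Of the 29 tested members within 10 genes of an end, 18 (62.1%) were higher and 7 (24.1%) lower, with a median log2 ratio of 0.39. Among all tested genes 36.4% were higher and 36.7% lower. Of the 5 members farther in, 2 (40%) were lower, close to that share, 3 did not pass and the median was -0.05. All COS and YRF1 genes lie within 10 genes of an end, so the 2 groups differ in family as well as place. Among the PAU, AAD and FLO genes near an end, PAU3 and FLO10 were higher. PAU6, AAD3, AAD4, AAD14, AAD15 and FLO9 were lower, and PAU1, PAU4, AAD10 and FLO1 did not pass. YRF1-6 lies next to COS1 (0.48 and 0.43), and YRF1-4 next to YRF1-5 (0.54 and 0.55). Other members had neighbours of opposite sign: COS5 (0.62) lies beside the maltose permease gene MPH3 (-0.24 ± 0.03) and COS7 (0.56) beside MPH2 (-0.10 ± 0.04). COS2 (0.50) lies beside PAU24 (0.05 ± 0.03), which did not pass. COS8 (0.73) lies beside the siderophore transporter gene ARN2, which was higher by 0.68 ± 0.04. COS12 is the outermost gene of the left arm of chromosome VII, and its neighbour YGL262W was not tested. PAU11, the next gene inward, had -0.09 ± 0.04.

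Genes outside the families by name were examined by the same count. Of 231 tested other genes within 10 places of an end, 105 (45.5%) were higher and 66 (28.6%) lower, with a median log2 ratio of 0.06. At 11 to 20 places 32.8% of 265 were higher, at 21 to 40 places 33.2% of 557, and beyond 40 places 36.0% of 4095, close to the 36.4% of all tested genes. The outermost gene of each of 32 chromosome arms was looked up after values had been seen. The array holds 28 of these and 25 were tested, of which 22 were higher and 2, COS12 and PAU8 (-0.14), lower. Among them 12 were outside the families by name, 11 of these higher, with a median of 0.42. They include the acid phosphatase gene PHO11 (1.56 ± 0.04) and the unnamed reading frames YPR204W (0.53 ± 0.03), YML133C (0.52 ± 0.03), YJL225C (0.52 ± 0.03), YHR219W (0.50 ± 0.03) and YIL177C (0.50 ± 0.03). Those 5 values lie in the range of the YRF1 genes. Whether these or other unnamed reading frames near the ends share Y' sequence with YRF1 was not examined. The 12 outermost genes and the 231 other genes may thus include relatives of YRF1. The plot by gene order shows the values from the ends inward.

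**Figure D5:**
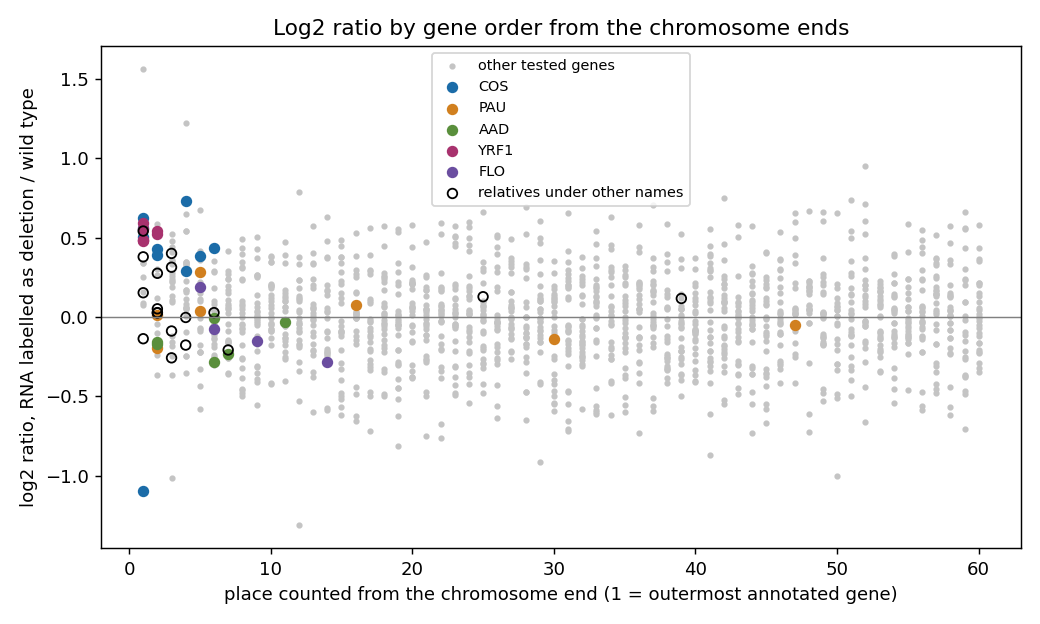
Log2 ratio (vertical axis, mean of 2 arrays) against the place of a gene counted from its chromosome end, where 1 is the outermost annotated gene, up to place 60, with other tested genes in grey, members coloured by family and relatives as open circles. YRF1 and COS genes gather at the outermost places above 0, and COS12 lies alone at place 1 near -1.10.

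Genes that act on chromosome ends, or that are related to the families, were examined as lists, whose counts stand beside 36.4% higher and 36.7% lower among all tested genes. Of 18 genes of silencing at telomeres and mating-type loci 5 (27.8%) were higher and 11 (61.1%) lower, with a median log2 ratio of -0.16 against -0.00193 for all tested genes. The largest were the deacetylase genes HST2 (0.65 ± 0.04) and HST1 (0.60 ± 0.04), relatives of SIR2, and YKU80 (-0.60 ± 0.04), a subunit of the Ku complex that protects chromosome ends. Of 11 tested telomere maintenance genes 4 (36.4%) were higher and 4 (36.4%) lower (median -0.05), with TEN1 (0.38 ± 0.03) of the telomere capping complex and TBF1 (0.32 ± 0.03) higher and the helicase PIF1 (-0.31 ± 0.03) lower. Thus both directions occurred in either list.

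Genes related to the families were counted in the same way. Of 9 DUP240 genes, which are related to COS, 1 (11.1%) was higher and 2 (22.2%) lower, with a median of -0.02. After median centring 4 (44.4%) were lower, against 37.1% of all tested genes. DFP1 (YAR023C) had the largest change at -0.52 ± 0.04, PRM9 had -0.15 and UIP3 had 0.14. Of 6 tested DAN and TIR mannoprotein genes, which resemble PAU, 2 (33.3%) were higher and 2 (33.3%) lower, with TIR4 at -0.15 and TIR3 at 0.15. TIR1 was lower (-0.48 ± 0.03), but its single spot was saturated in red on array 2. With the scanner ratios 1 gene (16.7%) was higher, against 33.9% of all tested genes. DAN2 and DAN3 of this list are PAU23 and PAU24 above. Of 36 other genes from families at chromosome ends 11 (30.6%) were higher and 15 (41.7%) lower (median 0.02), with the maltose transporter gene MAL11 (-0.58 ± 0.04) and SNZ3 (-0.35 ± 0.04) lower and SOR1 (0.35 ± 0.03) higher. SOR1, at a mean log2 intensity of 8.34, was dimmer than URA3.

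Regulators of the FLO and PAU genes also went both ways. Of 11 tested FLO regulators 5 (45.5%) were higher and 5 (45.5%) lower (median 0.02), led by TEC1 (-0.84 ± 0.035) and STE12 (0.62 ± 0.04), activators of filamentous growth. PHD1, another such activator, was higher (0.33 ± 0.04), but 1 of its red spots was saturated on array 1, as was its 1 used red spot on array 2. With the scanner ratios 3 (27.3%) were higher, against 33.9% of all tested genes. Of 7 regulators of the response to low oxygen and sterols 4 (57.1%) were higher and 3 (42.9%) lower (median 0.16), with the hypoxic repressor ROX1 at 0.32 ± 0.04 and MGA2 and SUT1 at 0.21 ± 0.04 and 0.21 ± 0.03.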

How the data were processed

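The deposited scanner files hold intensities per spot, background and flags, from Agilent Feature Extraction 9.5.3.1 per the file headers (9.3.2.1 per the submitters' processing notes). They also give the software's log10 ratio of red over green and its p-value, as deposited. The authors' log2 values per probe come in a further deposited table, whose steps are not given in the sources used here. Total RNA (0.2 ug) was labelled per array.

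In limma 3.58.1 (R 4.3.3), mean signals were corrected by normexp (offset 50) and normalised by loess, to which control spots did not contribute. Spots marked as outliers were left out (6.47% and 8.92%) and spots of a probe averaged. A gene was tested where 1 or both channels exceeded background clearly, by the scanner's flag, on each array. The log2 ratio was tested against 0 by limma over 5641 genes, with Benjamini-Hochberg adjustment at 0.05, after the code was tested on simulated data. SEs are limma's moderated ones, in which the variance of each gene is drawn towards that of all genes. Processed signals are the scanner's, after its background subtraction and LOWESS, averaged over used spots, and limma's log2 ratios were not computed from them. The 2 arrays share 1 slide and 1 scan. RefSeq R64 held 5756 of 6256 systematic names, and 500 genes kept the file's name. That table served for names and gene order only, since the files name no genome build.

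Members and lists were chosen with earlier results of these data known. Values on each array are given for up to 4 members per family with the largest absolute log2 ratios, and for all of at least 0.5. Of each further list, up to 3 genes are named, those with the largest absolute changes whose sign both arrays share. The exception is the list of strain and mating-type genes, which are all named.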

Additional observations from a re-analysis of the deposited data

How the results depend on the processing

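Over 8 other settings, the counts of higher members (18 to 20), lower members (9 in each) and members with an absolute log2 ratio of at least 0.5 (9 to 11) stayed within 1.5 times the reported ones, but the last count changed its members: higher COS genes past 0.5 went from 4 to 7 after median centring and to 3 with the scanner ratios, and YRF1 genes from 4 to 1 and 7. Median centring moved the family medians most, to 0.61 for COS, -0.22 for AAD, -0.17 for FLO and 0.48 for YRF1. The YRF1 median was 0.57 both in the scanner's own ratios and in the series table, and 0.54 without an offset. Of 34 tested members, 28 kept their call and sign after median centring, 4 gained a call (PAU1, PAU4, AAD6 and FLO1) and 2 lost it (PAU2 and PAU6). COS1 (0.57), COS2 (0.75), COS3 (0.64) and COS4 (0.69) became larger, which made COS2 the highest member, and under the other 7 settings no tested member changed its call; COS6 was added as higher where outlier spots were kept. Of the 25 outermost genes 11 were higher with a log2 ratio of at least 0.5, and 5 after median centring. Of all 5641 tested genes 233 were, and 338 after median centring. Among the relatives, median centring turned PAU8 (0.0126), PAU9 (0.16) and PAU11 (0.0307) from below 0 to above it. The value of AAD15 was -0.24 with the scanner log ratios and with the series table, and that of FLO10 was 0.28 with the latter. Leaving out an array leaves 1 array and no test; no called member then changed its sign, and FLO10 was 0.06 on array 1 and 0.31 on array 2. No paired analysis was possible because each array is already 1 within-array ratio and there is a single group. The precision is limited by 2 arrays of 1 dye orientation and, for dim probes such as COS12, FLO10 and AAD15, by signal over background.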
